A study of Homo sapiens with 9 samples.

Results

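The genes described here are the immediate early and heat shock genes of Z138, an established human line of mantle cell lymphoma, which is a cancer of B cells. They were chosen by name, from a list of 46 genes, and 45 of them had a row among the 16586 genes of the deposited expression table. The expression of HSPA1A was not analysed here. RNA sequencing covered 3 groups with 3 libraries each. The rescue (genotype SOX11KO+SOX11Rescue) was knockout cells to which SOX11 had been returned. The knockout had SOX11 knocked out, and the wild type was unedited Z138. All groups were grown in the same serum-containing RPMI-1640 medium with no stimulus or heat treatment named in the labels. Each group had 1 library in each of 3 batches, as the labels call them. What a batch was, and whether its libraries were separate cultures, is left unsaid by the labels, as is whether either edited group is 1 clone. The p-values therefore reflect the spread among these libraries alone, which may be technical.

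Immediate early genes are transcribed within minutes of a signal without new protein being made, and their messenger RNAs are short-lived. Growth factor and antigen receptor signals reach them through the kinase ERK, which acts on cofactors of the serum response factor SRF at CArG boxes, and through CREB-type factors at cyclic AMP response elements. They encode transcription factors (EGR, NR4A and the FOS and JUN proteins of AP-1) and feedback inhibitors of the same cascade (dual-specificity phosphatases, Sprouty and SPRED proteins). Heat shock genes encode chaperones and are driven by the factor HSF1 at heat shock elements when unfolded protein builds up.

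The members were set in 5 arms. The EGR and NR4A arm held 7 genes, the AP-1 arm 7, the ERK feedback arm 9, the other early genes 9 (IER2, IER3, IER5, KLF4, KLF6, KLF10, ZFP36, ZFP36L1 and SRF) and the heat shock arm 13. Levels are normalized counts recovered from the deposited log2 values, and values for a group are listed in the order of batches 1, 2 and 3. A fold is the ratio of mean normalized counts. Differences and their SE are on the deposited log2 scale, which understates the change of low genes. Genes that reached a CPM of 1 (a count scaled to the library's total) in 3 or more libraries were tested with limma over all 9 libraries, which kept 37 members of 11542 genes. A gene was called where its Benjamini-Hochberg adjusted p over those genes was under 0.05. The fit with batch as a block is named the replicate block.

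Estimated depth was 30800000 to 40800000 reads per library. SOX11 itself, the check of the labels, had 12818, 13849 and 12715 normalized counts in the rescue, 901, 1335 and 862 in the knockout and 3800.4, 3845 and 3003 in wild type. The knockout thus held 29.1% of the wild-type level and the rescue 370%, and no group overlapped another (two-sided exact permutation p = 0.1 in every pairing, which is the smallest value possible with 3 libraries a group). All 6 B cell and mantle cell markers were detected, with CD79A between 7807 and 9776 normalized counts in every library. PAX5, a B cell identity factor, varied more, with 10830, 14921 and 11336 normalized counts in the rescue, 6667, 9609 and 6146 in the knockout and 9409, 14293 and 8795 in wild type, and was highest in batch 2 of every group. PAX5 was called higher in the rescue than in the knockout and higher in batch 2, and CCND1 was called lower in the rescue than in wild type. The 7 T and NK cell markers in the table summed to 823 to 906 normalized counts in the rescue, 1428 to 1513 in the knockout and 543 to 671 in wild type. They were mostly CD4 and CD3G, while CD3D was at 4.75 or below throughout. Of the 4 tested, CD4, CD3E and NKG7 were called higher in the knockout than in wild type (background 12.7% of all genes). CD4 levels were 331, 387 and 370 in the rescue, 818, 888 and 831 in the knockout and 186, 179 and 174 in wild type. Its knockout rise (adjusted p = 5.15e-07) and its fall in the rescue against the knockout (adjusted p = 7.6e-06) were kept under every alternative. The CD3E and NKG7 calls were lost without batch 1 or 3. The myeloid markers summed to 41.1 or below and the epithelial ones to 89.1 or below, and the fibroblast markers, nearly all COL1A1, to 728 to 954 in the rescue, 1020 to 1294 in the knockout and 928 to 1301 in wild type. The part of these marker shifts in the early gene results was not tested.

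Called in the knockout against wild type were 4 of 6 tested EGR and NR4A genes (66.7%), all lower. The AP-1 arm gave 1 of 4 (25%) and the ERK feedback arm 2 of 7 (28.6%), also lower. Of 8 other early genes 3 were called (37.5%), 2 lower and 1 higher. The heat shock arm gave 2 of 12 (16.7%, near the background of 12.7%), HSPB1 and BAG3, both higher. In the knockout against wild type 12 of the 37 tested members were called, 9 lower and 3 higher, which is 32.4% against the background of 12.7% of all genes tested (7.37% lower and 5.36% higher). In the rescue against the knockout 12 members were called, 8 higher and 4 lower, against a background of 22.1% (11.5% higher and 10.7% lower). In the rescue against wild type 2 members were called, both lower, against a background of 4.07% (1.78% lower and 2.3% higher). The replicate block called more, with 22 members in the knockout against wild type (17 lower, 5 higher; background 21.5%), 25 in the rescue against the knockout (18 higher, 7 lower; background 31.2%) and 4 in the rescue against wild type (3 lower, 1 higher; background 8.06%). Groups did not overlap for 17, 18 and 5 members in these comparisons, against 29.5%, 41.8% and 20.8% of all genes. The count for the knockout against wild type fell to 4 without knockout library 1 or 3, to 7 without wild-type library 1 or 3 or rescue library 3, to 3 without batch 1 and to 4 without batch 3, while it was 14 without batch 2. That for the rescue against the knockout fell to 3 without batch 3 and was 17 without batch 2. The count for the rescue against wild type fell to 1 without wild-type library 1 or 2. It fell to 0 without rescue library 1 or 2 or any batch. The comparisons share libraries, so their counts are not independent of each other. In bulk RNA a lower level per cell and fewer cells with the transcript cannot be told apart.

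By arm, the median log2 difference of knockout minus wild type was −0.54 over 6 tested EGR and NR4A genes, −0.28 over 4 AP-1 genes, −0.29 over 7 ERK feedback genes, −0.09 over 8 other early genes and 0.02 over 12 heat shock genes, against 0.0048 over all genes tested. For rescue minus knockout the medians were 0.39, −0.02, 0.36, 0.13 and −0.06 in the same order of arms, against −0.0065 over all genes. For rescue minus wild type they were −0.15, −0.24, 0.07, −0.05 and −0.02, against −3.2e-05. All 6 EGR and NR4A genes and all 7 ERK feedback genes had a negative difference in the knockout against wild type, and all 13 had a positive one in the rescue against the knockout. These signs share the knockout libraries, and no test of the difference between arms was made.

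**Figure D1:**
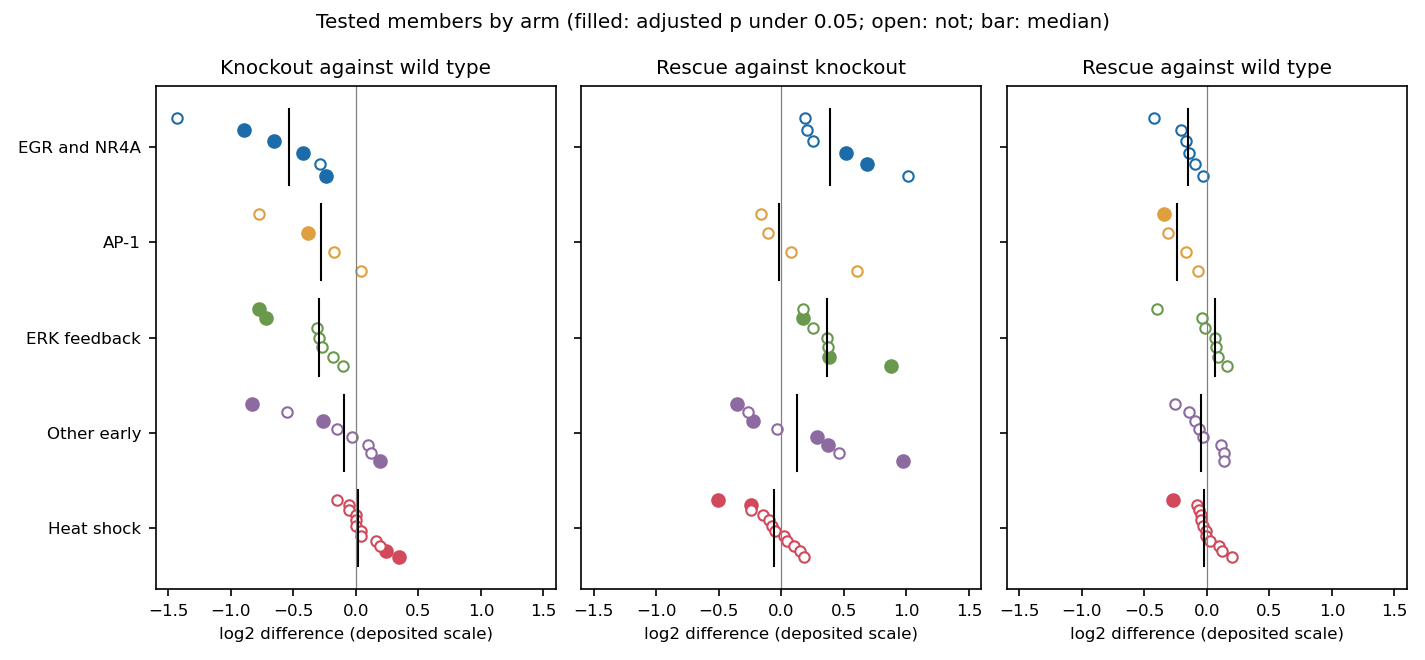
Log2 difference of each tested member (points, deposited log2 scale) by arm, with a panel each for the knockout against wild type, the rescue against the knockout and the rescue against wild type. Filled points were called, open ones were not, and a bar marks each arm's median. The EGR and NR4A and the ERK feedback genes all lie below 0 in the knockout against wild type (medians −0.54 and −0.29), while the heat shock genes lie around 0 (median 0.02).

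EGR2 and NR4A1 were the 2 members whose knockout fall passed under every alternative setting run. EGR2 (ENSG00000122877.16, GRCh38 chromosome 10, 62811996 to 62919900, minus strand), a zinc finger factor that restrains activation in T cells, had 477, 525 and 389 normalized counts in the rescue, 152, 229.9 and 190.1 in the knockout and 679, 449 and 570.1 in wild type. Every knockout library lay below every library of the other groups, while the rescue and wild type overlapped. EGR2 was thus 2.97-fold lower in the knockout than in wild type (log2 difference −0.66, SE 0.085, adjusted p = 0.000398) and 2.43-fold higher in the rescue than in the knockout (log2 difference 0.52, SE 0.085, adjusted p = 0.00131). Its batch share was the lowest of the tested members, with 0.662% of its sum of squares between batches and 89.0% between groups.

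EGR1 (ENSG00000120738.8, chromosome 5, 138465490 to 138469315, plus strand), the best known growth-factor-induced member of the family, varied by batch. It had 5153, 366 and 2732 normalized counts in the rescue, 871, 239.8 and 1212 in the knockout and 8076, 184 and 6474 in wild type. In batches 1 and 3 the knockout was 9.27-fold and 5.34-fold below wild type, and in batch 2, where EGR1 was low in all 3 groups, it was 1.30-fold above it. The difference of the knockout from wild type was not called (log2 difference −1.43, SE 0.85, adjusted p = 0.32) but passed with the replicate block (adjusted p = 0.0205). The rescue lay 3.55-fold above the knockout and passed neither way (adjusted p = 0.44, and 0.0632 with the replicate block).

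EGR3, another family member induced by antigen receptor signals, had 186, 89.3 and 112 normalized counts in the rescue, 54.1, 77.5 and 45.1 in the knockout and 285, 125 and 162 in wild type. The knockout lay below both other groups in every batch. It was 3.24-fold lower than wild type (adjusted p = 0.0177), and the rescue, 2.19-fold above the knockout, passed only with the replicate block (adjusted p = 0.0926 without it and 0.031 with it). The knockout call of EGR3 was lost without knockout library 1 or 3, wild-type library 1, batch 1 or batch 3 (adjusted p up to 0.164). EGR4 was too low to be tested, at 20.3, 17.2 and 15.7 normalized counts in the rescue, 7.7, 4.39 and 6.61 in the knockout and 16.1, 17.5 and 12.5 in wild type, and without the filter the rescue against the knockout was called (adjusted p = 0.0345) and the knockout against wild type was not (adjusted p = 0.103).

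NR4A1 (ENSG00000123358.20, chromosome 12, 52022832 to 52059507, plus strand), an orphan nuclear receptor that reports antigen receptor signalling in B cells, had 725, 1169.7 and 841 normalized counts in the rescue, 277, 461 and 352 in the knockout and 1054, 1540.0 and 861 in wild type. The knockout stood apart from both other groups, which overlapped. NR4A1 was 3.17-fold lower in the knockout than in wild type (log2 difference −0.89, SE 0.14, adjusted p = 0.00158) and 2.51-fold higher in the rescue than in the knockout (adjusted p = 0.00533). The rescue call was lost without batch 3 (adjusted p = 0.0583).

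NR4A2, a paralogous receptor, had 37.4, 51.7 and 38.4 normalized counts in the rescue, 22.9, 15.1 and 5.77 in the knockout and 25.5, 78 and 49.1 in wild type. In batch 1 the knockout lay just under wild type. The knockout was 3.49-fold lower than wild type (adjusted p = 0.0444), a call lost under 14 of 19 alternatives (adjusted p up to 0.308), among them leaving out any rescue or knockout library, wild-type library 2 or 3, or batch 2 or 3. NR4A3, the remaining receptor, had 31.6, 112 and 32.9 normalized counts in the rescue, 11.9, 58.5 and 8.81 in the knockout and 20.8, 271 and 26.4 in wild type. Its high libraries were those of batch 2, and the knockout was lowest within each batch. The 4.02-fold lower mean of the knockout against wild type was not called (adjusted p = 0.391) and passed narrowly with the replicate block (adjusted p = 0.0496).

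The promoter windows of EGR1 and NR4A3 are shown because the 2 genes moved in opposite directions between batches. Each runs from 250 bases before to 50 bases after the start given by RefSeq on GRCh38.p14, at chr5:138465229-138465528 and chr9:99821635-99821934, both on the plus strand, 5′ to 3′. Capitals mark CArG boxes (CC, 6 bases of A or T, then GG) in EGR1, at positions −105 and −83 from the start. In NR4A3 they mark the short form of the cyclic AMP response element (TGACG on either strand), at −109, −91, −83 and −25.
EGR1: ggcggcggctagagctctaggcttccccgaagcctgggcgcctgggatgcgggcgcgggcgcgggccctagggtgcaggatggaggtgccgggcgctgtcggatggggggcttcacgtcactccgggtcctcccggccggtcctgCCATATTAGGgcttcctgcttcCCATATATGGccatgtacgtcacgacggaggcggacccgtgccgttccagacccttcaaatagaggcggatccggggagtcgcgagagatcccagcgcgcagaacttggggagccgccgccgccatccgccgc
NR4A3: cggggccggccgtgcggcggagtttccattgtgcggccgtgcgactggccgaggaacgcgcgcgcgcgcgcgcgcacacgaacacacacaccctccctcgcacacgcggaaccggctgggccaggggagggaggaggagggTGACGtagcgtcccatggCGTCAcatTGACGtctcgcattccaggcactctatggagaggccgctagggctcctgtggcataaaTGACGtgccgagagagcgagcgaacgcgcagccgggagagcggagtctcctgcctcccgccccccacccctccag
EGR1's window also held short forms, at −135 and −66, left in lower case. Windows were matched for 38 of the 46 listed genes (HSPA1A included), 54 windows in all, some genes having several starts. A CArG box was found in 3 of the 54 (EGR1, EGR2 and SRF), against 1.29% of all 35116 windows, and a short form in 31 of the 54, against 24.6%. A full element (TGACGTCA) was found in the windows of DUSP1, HSP90AB1, ZFP36L1 and JUND, against 1.85% of all windows, each such match overlapping short forms. These are letter matches only.

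**Figure D2:**
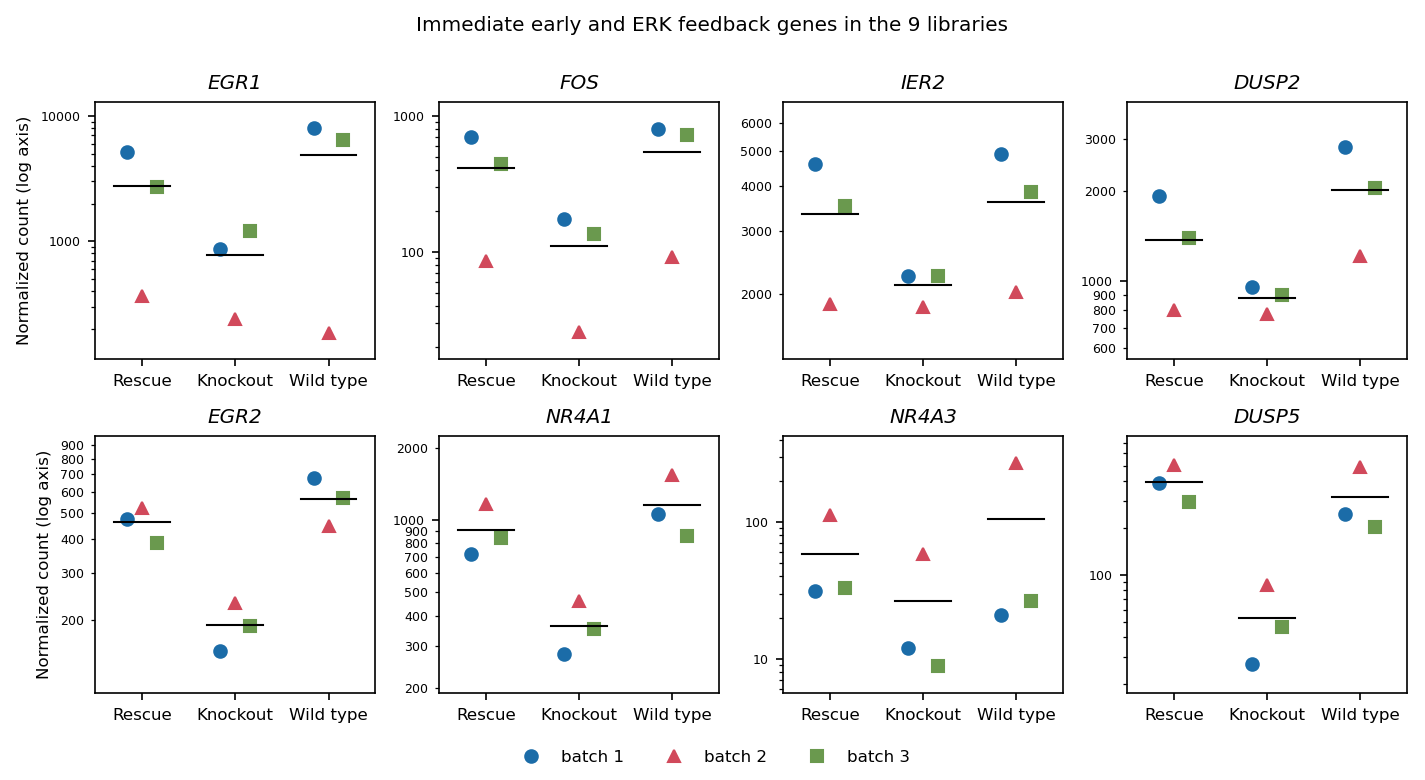
Normalized counts (log axis) of 8 early genes in each library, with a panel per gene, the rescue, knockout and wild type along the x axis, the batch of each library as its symbol and a line at each group's mean. The knockout libraries of EGR2 (152 to 229.9) and NR4A1 (277 to 461) sit below all others, while EGR1 and FOS are low in batch 2 of every group.

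In the AP-1 arm JUND fell in the knockout against wild type, and FOS passed only with the replicate block. FOS (ENSG00000170345.10, chromosome 14, 75278774 to 75282230, plus strand), the archetypal immediate early factor, had 709, 85.7 and 445 normalized counts in the rescue, 174, 25.7 and 135 in the knockout and 809, 92.4 and 728 in wild type. Within each batch the knockout lay below both other groups, by 4.65-fold, 3.59-fold and 5.39-fold against wild type, but the batches overlapped across groups. FOS was not called without the replicate block (adjusted p = 0.166 against wild type and 0.228 for the rescue against the knockout) and was called with it in both comparisons (adjusted p = 0.000942 and 0.0027).

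JUND, a JUN protein that is expressed in resting cells, had 2380.3, 2416 and 2339.8 normalized counts in the rescue, 2079, 2393 and 2217 in the knockout and 3129, 3678 and 2605 in wild type. Wild type lay above both edited groups, which overlapped. JUND was 1.41-fold lower in the knockout than in wild type (log2 difference −0.38, SE 0.086, adjusted p = 0.0134), a call lost without knockout library 1 or without batch 1 (adjusted p up to 0.195). The rescue lay 1.07-fold above the knockout (adjusted p = 0.596) and 1.32-fold below wild type, which passed only with the replicate block (adjusted p = 0.0814 without it and 0.0192 with it).

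JUNB, which counters JUN in many settings, had 2475, 2092 and 2586 normalized counts in the rescue, 2391, 2998 and 2875 in the knockout and 3245, 3160.5 and 3169 in wild type. It was lowest in the rescue, 1.34-fold below wild type (log2 difference −0.34, SE 0.077, adjusted p = 0.0324), and the 3 rescue libraries did not overlap wild type. That call was lost without rescue library 1 or 2, any wild-type library or any batch (adjusted p up to 0.189). FOSB, a FOS relative, ranged from 11.9 to 33.2 normalized counts in the rescue, 20.9 to 46.8 in the knockout and 12.8 to 41.9 in wild type, with groups that overlapped.

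FOSL1, FOSL2 and JUN were too low to be tested. JUN had 16.8, 15.6 and 10.8 normalized counts in the rescue, 16.8, 16.9 and 11.4 in the knockout and 24.2, 34.8 and 28.9 in wild type, so that wild type lay above both edited groups, and without the filter it was not called in the knockout against wild type (adjusted p = 0.113). FOSL2 had 3.03, 36.6 and 44 normalized counts in the rescue, 7.63, 4.55 and 2.2 in the knockout and 6.25, 31.8 and 21.6 in wild type, with batch 1 low in the rescue and in wild type. Rescue library 1 and knockout library 3 lay under a floor of 3 reads (3.16 and 3.4 normalized counts).

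Of the 7 tested genes of the ERK feedback arm 2 fell in the knockout against wild type and 3 rose in the rescue against it, and with the replicate block 5 fell and 7 rose. These are 28.6% and 42.9%, against 12.7% and 22.1% of all genes, and with the block 71.4% and 100%, against 21.5% and 31.2%. DUSP5 (ENSG00000138166.6, chromosome 10, 110497838 to 110511544, plus strand), a nuclear phosphatase that inactivates ERK, had 389, 504 and 292 normalized counts in the rescue, 27, 86 and 46.3 in the knockout and 247, 492 and 203 in wild type. The knockout lay well below both other groups. DUSP5 was 5.91-fold lower in the knockout than in wild type (log2 difference −0.72, SE 0.13, adjusted p = 0.00414) and 7.44-fold higher in the rescue than in the knockout (log2 difference 0.87, adjusted p = 0.000735). The first call was lost without batch 1 (adjusted p = 0.067), and the second was kept under every alternative.

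DUSP2, a phosphatase of activated lymphocytes, had 1936, 801 and 1393 normalized counts in the rescue, 958, 780.4 and 902 in the knockout and 2808, 1219 and 2053 in wild type. The knockout lay below wild type throughout, and the rescue overlapped both. DUSP2 was 2.30-fold lower in the knockout than in wild type (adjusted p = 0.0408), and the rescue, 1.56-fold above the knockout, passed only with the replicate block (adjusted p = 0.259 without it and 0.0252 with it). The knockout call was lost without any knockout library, wild-type library 1 or 3, rescue library 3, batch 1 or batch 3 (adjusted p up to 0.259). DUSP1, which removes phosphate from stress kinases as well as ERK, had 611, 355 and 488 normalized counts in the rescue, 409.6, 278 and 294 in the knockout and 716, 362 and 479 in wild type. The knockout was lowest within each batch, but DUSP1 was called only with the replicate block (adjusted p = 0.00453 for knockout against wild type and 0.00708 for rescue against knockout, compared with 0.158 and 0.18 without it).

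SPRY2, a Sprouty inhibitor of receptor signalling to ERK, had 724, 493 and 527 normalized counts in the rescue, 315, 333 and 334 in the knockout and 704, 377 and 525 in wild type. The knockout libraries lay close together below both other groups. SPRY2 was 1.78-fold higher in the rescue than in the knockout (adjusted p = 0.0234), a call lost without rescue library 1, any knockout library, batch 1 or batch 3 (adjusted p up to 0.154). The 1.64-fold lower knockout mean against wild type passed only with the replicate block (adjusted p = 0.076 without it and 0.0175 with it).

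DUSP10, a phosphatase of the stress kinases JNK and p38, had 92.9, 105 and 101 normalized counts in the rescue, 68.8, 59.9 and 42.8 in the knockout and 83.7, 93.9 and 66.9 in wild type. The knockout lay below the rescue and overlapped wild type. DUSP10 was 1.74-fold higher in the rescue than in the knockout (adjusted p = 0.0254), and the call was lost without rescue library 2 or 3, knockout library 2 or 3, any batch, or under quantile normalization (adjusted p up to 0.194). SPRY1 and SPRED1, related inhibitors, passed only with the replicate block. SPRY1 was called in both comparisons (adjusted p = 0.0242 for the 1.32-fold lower knockout against wild type and 0.0227 for the 1.30-fold higher rescue against the knockout). SPRED1 was called in the rescue, 1.59-fold above the knockout (adjusted p = 0.0107).

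DUSP4 and DUSP6 were too low to be tested. DUSP4, a nuclear phosphatase of ERK, had 4.14, 12.7 and 10.3 normalized counts in the rescue, 0, 1.05 and 0 in the knockout and 8.54, 22.1 and 9.84 in wild type. All 3 knockout libraries lay under the floor of 3 reads, which was 2.57 to 3.4 normalized counts per library and covers counting error only. Without the filter DUSP4 was called in both comparisons (adjusted p = 0.00658 for the knockout against wild type and 0.0158 for the rescue against the knockout). DUSP6 ranged from 6.17 to 11.7 normalized counts in the rescue, 3.34 to 13.9 in the knockout and 1.03 to 5.78 in wild type. Its knockout library 3 and wild-type library 2 lay under the floor of 3 reads.

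Among the other early genes the directions were mixed. ZFP36L1 (ENSG00000185650.10, chromosome 14, 68787660 to 68796253, minus strand), a protein that speeds decay of AU-rich messenger RNAs and restrains B cell proliferation, had 6243, 3271 and 4791 normalized counts in the rescue, 2030.5, 2014 and 2019.8 in the knockout and 5615, 2889 and 4307 in wild type. The knockout libraries were nearly level, and the other groups varied with batch. ZFP36L1 was 2.11-fold lower in the knockout than in wild type (log2 difference −0.83, SE 0.20, adjusted p = 0.0201) and 2.36-fold higher in the rescue than in the knockout (adjusted p = 0.00582). The first call was lost without any knockout library, wild-type library 1 or 3, or batch 1 or 3 (adjusted p up to 0.2004), and the second without batch 3 (adjusted p = 0.113).

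Its paralog ZFP36 had 697, 740.4 and 732 normalized counts in the rescue, 878, 1359.6 and 1053 in the knockout and 986, 886 and 1047 in wild type. It was lowest in the rescue, 1.52-fold below the knockout (adjusted p = 0.015; 0.131 without batch 3), while the knockout and wild type overlapped. KLF10, a zinc finger repressor also induced by TGF-beta, had 792, 905 and 902 normalized counts in the rescue, 1068, 1219.9 and 1045 in the knockout and 917, 896 and 870.2 in wild type. The knockout lay above both other groups. It rose in the knockout against wild type (log2 difference 0.19, adjusted p = 0.0496), a call lost under 14 of 20 alternatives, among them leaving out any library or batch (adjusted p up to 0.1995). It was 1.28-fold lower in the rescue than in the knockout (adjusted p = 0.018), a call lost without rescue library 1, knockout library 2 or any batch (adjusted p up to 0.146).

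KLF6, a related factor, had 1474, 1978 and 1746 normalized counts in the rescue, 1238, 1181 and 1142 in the knockout and 1588, 1639.8 and 1414 in wild type. The knockout lay below both other groups. KLF6 was 1.30-fold lower in the knockout than in wild type (adjusted p = 0.0445), a call lost under 10 of 20 alternatives (adjusted p up to 0.183), among them no filter and leaving out rescue library 3, any knockout library, wild-type library 1 or 2, or any batch. It was 1.46-fold higher in the rescue than in the knockout (adjusted p = 0.00488; 0.0922 without batch 3).

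IER3, an early gene of growth and survival signalling, had 69.1, 31.4 and 60.8 normalized counts in the rescue, 11.5, 10.6 and 10.3 in the knockout and 42, 15.8 and 31.1 in wild type. The knockout was low and level in all batches. IER3 was 4.98-fold higher in the rescue than in the knockout (adjusted p = 0.0061), a call lost without batch 1 or 3 or under quantile normalization (adjusted p up to 0.115), and the 2.75-fold lower knockout mean against wild type was not called (adjusted p = 0.137). The identifier given for IER3 was not on the primary assembly of GENCODE 29, so reads may be divided between copies and its level is uncertain.

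IER2, one of the fastest early genes, had 4625, 1875 and 3512 normalized counts in the rescue, 2250.1, 1840.5 and 2246 in the knockout and 4917, 2027 and 3857 in wild type. In batch 2 the 3 groups were close, and in batches 1 and 3 the knockout was lowest. IER2 passed only with the replicate block (adjusted p = 0.0122 for the 1.70-fold lower knockout against wild type and 0.0197 for the 1.58-fold higher rescue against the knockout, against 0.22 and 0.253 without it). IER5, which takes part in the HSF1 response, had 4545, 5414 and 5138 normalized counts in the rescue, 5555, 6882 and 6182 in the knockout and 5058, 6468 and 5407 in wild type. The rescue, 1.23-fold below the knockout, passed only with the replicate block (adjusted p = 0.062 without it and 0.000958 with it). SRF itself was not called, at 1871 to 2026 normalized counts in the rescue, 1902 to 2153 in the knockout and 1923 to 2203 in wild type. KLF4, too low to be tested, ranged from 4.85 to 13.3 normalized counts in the rescue, 16.1 to 20.2 in the knockout and 6.41 to 18.3 in wild type.

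In the heat shock arm the group differences were small, and the 2 members called in the knockout against wild type, HSPB1 and BAG3, rose. These 2 of 12 are 16.7%, near the 12.7% of all genes called. With the replicate block 4 rose and 1 fell (41.7%, against 21.5% of all genes). In the rescue against the knockout 2 fell (16.7%, against 22.1%), and with the block 2 rose and 4 fell (50%, against 31.2%). HSPB1 (ENSG00000106211.9, chromosome 7, 76302544 to 76304295, plus strand), the small heat shock protein HSP27, had 11654, 11373 and 12132 normalized counts in the rescue, 16438, 16263 and 18335 in the knockout and 14067, 14534 and 14305 in wild type. The 3 groups did not overlap, with the rescue lowest and the knockout highest. HSPB1 was 1.19-fold higher in the knockout than in wild type (log2 difference 0.24, SE 0.054, adjusted p = 0.0144), 1.45-fold lower in the rescue than in the knockout (log2 difference −0.51, adjusted p = 6.07e-05) and 1.22-fold lower in the rescue than in wild type (adjusted p = 0.0168). The call against the knockout was kept under every alternative. That of the knockout against wild type was lost without knockout library 3, batch 1 or batch 3 (adjusted p up to 0.141), and that of the rescue against wild type without rescue library 1 or 2 or any batch (adjusted p up to 0.18).

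BAG3, a co-chaperone that links HSP70 to selective autophagy, had 1048, 835 and 925 normalized counts in the rescue, 1243, 918 and 1162 in the knockout and 871, 569 and 806 in wild type. Within each batch the knockout was highest and wild type lowest. BAG3 was 1.48-fold higher in the knockout than in wild type (log2 difference 0.35, SE 0.099, adjusted p = 0.041), a call lost under 9 of 20 alternatives (adjusted p up to 0.221), among them log2(CPM + 1), a fit restricted to the 2 groups, and leaving out rescue library 3, knockout library 1 or 3, wild-type library 2 or 3, or batch 1 or 3. With the replicate block the rescue was called below the knockout (1.18-fold, adjusted p = 0.043, against 0.317 without it) and above wild type (1.25-fold, adjusted p = 0.0378, against 0.358 without it).

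HSPE1 and HSPD1 encode the mitochondrial chaperonin pair and overlap on opposite strands of chromosome 2. The overlap is one of gene limits, and sequence shared between their transcripts was not examined. No source used here says whether reads were counted by strand. Whether reads of one gene counted for the other is therefore unknown, and their levels are uncertain to that extent. HSPE1 had 11941, 10144 and 10857 normalized counts in the rescue, 13297, 12552 and 13529 in the knockout and 12111, 11087 and 11696 in wild type. The knockout lay above both other groups. HSPE1 was 1.20-fold lower in the rescue than in the knockout (adjusted p = 0.0161), a call lost without rescue library 2 or 3, knockout library 1 or 3, or batch 3 (adjusted p up to 0.185). With the replicate block the knockout was also called above wild type for HSPE1 (1.13-fold, adjusted p = 0.0199, against 0.113 without it) and HSPD1 (1.14-fold, adjusted p = 0.0106, against 0.182 without it), and the rescue below the knockout for HSPD1 (1.18-fold, adjusted p = 0.00194, against 0.0692 without it).

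HSF1 and HSF2, the heat shock transcription factors, were not called in any group comparison. HSF1 ranged from 1300.1 to 1368 normalized counts in the rescue, 1375 to 1503 in the knockout and 1265 to 1453 in wild type. The large chaperones HSPA8, HSPH1, HSP90AA1 and HSP90AB1 and the co-chaperone DNAJA1 had no call against wild type, with log2 differences of knockout minus wild type of 0.04, 0.0029, −0.05, 0.0031 and −0.06. DNAJB1, an HSP40 co-chaperone, passed only with the replicate block, 1.13-fold lower in the knockout than in wild type (adjusted p = 0.0266) and 1.12-fold higher in the rescue than in the knockout (adjusted p = 0.0214), against 0.488 and 0.446 without it. DNAJA1 was likewise called 1.14-fold higher in the rescue than in the knockout with the block (adjusted p = 0.016, against 0.311 without it). HSPA1B, the inducible HSP70 gene with a near-identical copy, was listed at 0 in 8 libraries and at 21.1 normalized counts in rescue library 2.

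**Figure D3:**
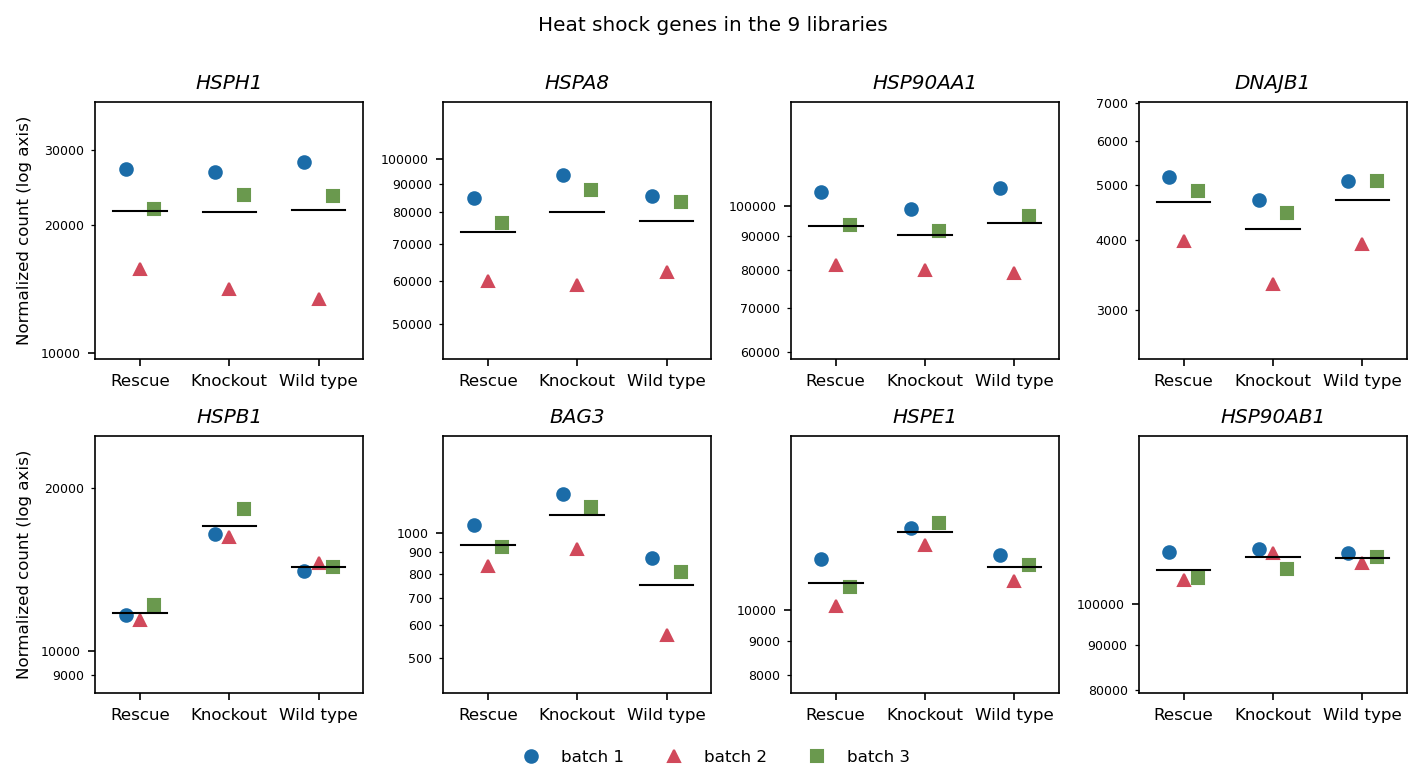
Normalized counts (log axis) of 8 heat shock genes in each library, with a panel per gene, the rescue, knockout and wild type along the x axis, the batch of each library as its symbol and a line at each group's mean. HSPB1 separates the groups (11373 to 12132 in the rescue, 16263 to 18335 in the knockout), while HSPH1, HSPA8 and DNAJB1 separate batch 2 from the other batches within every group.

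Between batches the heat shock arm had the largest share of calls (58.3%), with the EGR and NR4A arm next (50%). The difference between arms was not tested, nor was the part of expression level in it. The spread was tested with an F test over the batch terms in a limma fit with group means, and 16 of the 37 tested members were called (43.2%), against 6.74% of all genes. Of these, 12 were lower in batch 2 than in the other batches and 4 were higher (background 3.08% and 3.66%). The heat shock arm gave 7 of 12, all lower in batch 2, the EGR and NR4A arm 3 of 6 (1 lower, 2 higher), the ERK feedback arm 3 of 7 (2 lower, 1 higher), the other early genes 2 of 8 (1 lower, 1 higher) and the AP-1 arm 1 of 4 (lower). The F test picks no batch, so an adjusted p beside a batch 2 fold covers any difference among the 3 batches. The shift of batch 2 alone was not tested. For DUSP1 and HSPD1 batch 1 lay slightly further from the mean of the others (log2 difference 0.296 and 0.183) than batch 2 (−0.256 and −0.180). For the other called members batch 2 lay furthest. In 20 of the 37 members the batch 2 library lay outside the other batches on the same side in all 3 groups, against 26.1% of all genes. The batch count fell to 9 without rescue library 2, to 9 without wild-type library 1 and to 10 without wild-type library 2. Estimated depth was 33900000 to 38200000 reads in batch 2, within the range of the other batches. No source used here gives the kit or read layout of each library, and their part in the batch shifts was not tested.

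HSPH1 (ENSG00000120694.20, chromosome 13, 31134974 to 31162388, minus strand), an HSP110 exchange factor for HSP70, ranked 1 of 11542 genes by its batch p. It had 27152, 15721 and 21788 normalized counts in the rescue, 26725, 14171 and 23546 in the knockout and 28229, 13366 and 23451 in wild type. In every group batch 1 was highest and batch 2 lowest, and the groups lay on top of each other. HSPH1 averaged 14419 normalized counts in batch 2 and 25148 in the other batches, 1.74-fold lower (log2 difference of batch 2 from the mean of the others −0.77, adjusted p = 0.000713). Of its sum of squares 97.3% lay between batches and 0.0638% between groups.

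HSPA8 (ENSG00000109971.14, chromosome 11, 123057489 to 123063230, minus strand), the constitutive HSC70, ranked 11 by its batch p. It had 85047, 59848 and 76392 normalized counts in the rescue, 93403, 58823 and 87781 in the knockout and 85655, 62151 and 83471 in wild type. Batch 2 was lowest in each group, 1.42-fold below the others on average (log2 difference −0.49, adjusted p = 0.00193). DNAJB1, which ranked 31, had 5171, 3979 and 4896 normalized counts in the rescue, 4715, 3347 and 4469.8 in the knockout and 5082, 3929 and 5097 in wild type, and was 1.31-fold lower in batch 2 (adjusted p = 0.0034). HSP90AA1, the inducible HSP90, was 1.23-fold lower (adjusted p = 0.00471), DNAJA1 1.23-fold lower (adjusted p = 0.0086), BAG3 1.30-fold lower (adjusted p = 0.0238) and HSPD1 1.13-fold lower (adjusted p = 0.0252). HSP90AB1, the constitutive HSP90 (log2 difference −0.02, adjusted p = 0.563), HSPB1, HSF1 and HSF2 were not called. The batch calls of BAG3 and HSPD1 were each lost without rescue library 1 or wild-type library 1 or 2, that of BAG3 also without knockout library 1 or 2, and that of HSPD1 also without rescue library 2 or 3 (adjusted p up to 0.0904 and 0.103).

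The windows of HSPA8 (chr11:123062087-123062386, minus strand) and DNAJA1 (chr9:33025023-33025322, plus strand) are shown as members that fell together in batch 2, from the same RefSeq set and with the same limits as above. Capitals mark heat shock elements, read as GAANNTTC or TTCNNGAA, which overlap where inverted GAA units run on. They begin at −230, −225, −55 and −50 in HSPA8 and at −198, 4 and 9 in DNAJA1.
HSPA8: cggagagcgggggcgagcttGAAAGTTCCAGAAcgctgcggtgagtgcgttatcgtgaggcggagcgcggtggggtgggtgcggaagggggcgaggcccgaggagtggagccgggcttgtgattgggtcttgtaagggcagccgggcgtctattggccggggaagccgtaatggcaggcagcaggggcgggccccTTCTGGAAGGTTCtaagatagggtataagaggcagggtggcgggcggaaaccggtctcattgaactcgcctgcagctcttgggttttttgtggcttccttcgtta
DNAJA1: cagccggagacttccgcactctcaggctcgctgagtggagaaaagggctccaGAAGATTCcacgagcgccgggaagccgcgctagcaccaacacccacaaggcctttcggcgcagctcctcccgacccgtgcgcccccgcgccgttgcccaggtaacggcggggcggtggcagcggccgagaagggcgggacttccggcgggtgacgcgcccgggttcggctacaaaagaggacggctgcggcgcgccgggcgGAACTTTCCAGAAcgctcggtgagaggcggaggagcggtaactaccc
Such an element was found in 10 of the 20 heat shock windows used, from 9 of 13 heat shock genes (HSPA1A counted, HSF1 left out). Over all members it was found in 14 of the 54 windows, against 13.5% of all windows. Among heat shock genes called by batch, HSPA8, HSPD1, HSP90AA1, DNAJA1 and DNAJB1 had an element, while HSPH1 and BAG3 had none. Among those not called, HSP90AB1 and HSPB1 had an element, while HSPE1 and HSF2 had none. A letter match in a window of this length says nothing of binding.

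Among the early genes EGR1 had the largest batch 2 shift on the log2 scale of any gene tested. It averaged 263 normalized counts in batch 2 and 4086 in the other batches, 15.5-fold lower (log2 difference −2.21, adjusted p = 0.0114), a call lost without rescue library 2 (adjusted p = 0.057). Its shift was −2.19 in the rescue, −1.04 in the knockout and −3.39 in wild type, and the difference between groups was not tested. FOS fell with it, 7.36-fold lower in batch 2 (log2 difference −0.90, adjusted p = 0.00363), and this call was kept under every alternative. NR4A3 moved the other way, 6.67-fold higher in batch 2 (log2 difference 0.50, adjusted p = 0.0164), as did NR4A1, 1.54-fold higher (adjusted p = 0.0213). The NR4A3 call was kept under every alternative, and the NR4A1 call was lost without rescue library 1 or 2 or wild-type library 2 (adjusted p up to 0.0965). Batch 2 thus held less EGR1 and FOS and more NR4A1 and NR4A3, although all 4 encode early transcription factors.

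Among the ERK feedback and other early genes called by the F test, batch 2 lay lower for some and higher for others. DUSP1 was 1.51-fold lower in batch 2 (adjusted p = 0.0134), DUSP2 1.79-fold lower (adjusted p = 0.0213) and IER2 1.86-fold lower (adjusted p = 0.0172), while DUSP5 was 1.80-fold higher (adjusted p = 0.0271) and IER5 1.18-fold higher (adjusted p = 0.0156). For IER2 the shift was −0.88 in the rescue, −0.22 in the knockout and −0.89 in wild type on the log2 scale, and for DUSP2 −0.68, −0.15 and −0.71. These 5 calls were lost without some libraries, that of DUSP1 without rescue library 2 or wild-type library 1, those of DUSP2 and IER2 without rescue library 2 or wild-type library 1 or 2, and that of DUSP2 also without rescue library 1. That of IER5 was lost without rescue library 1, knockout library 2 or wild-type library 1, and that of DUSP5 without rescue library 2 or 3, knockout library 2 or any wild-type library (adjusted p up to 0.11 over the 5).

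**Figure D4:**
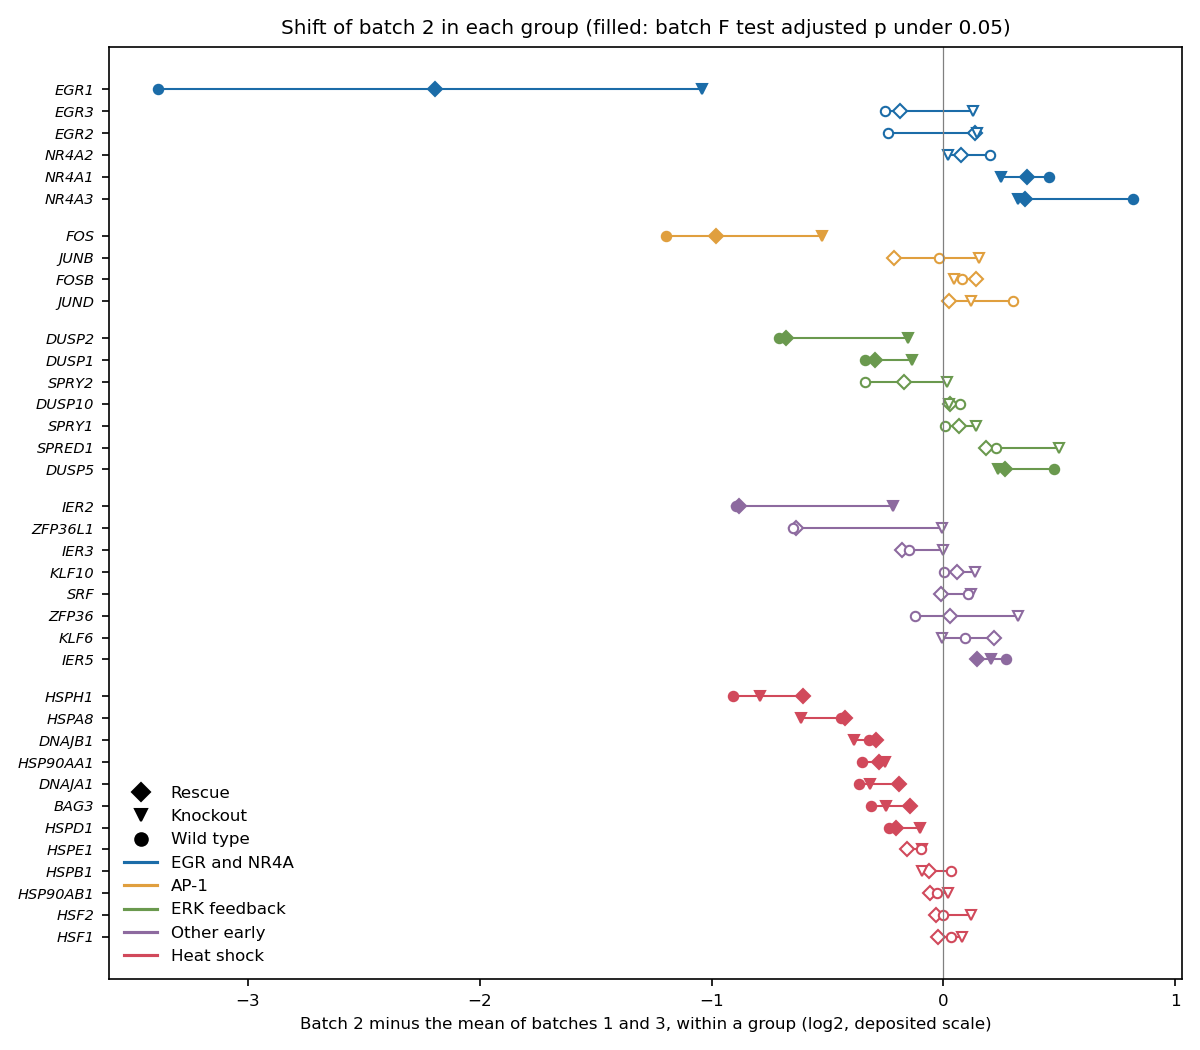
Log2 difference of the batch 2 library from the mean of the other batches within each group (x axis), for the 37 tested members by arm, with a symbol per group and filled symbols where the batch test was called. EGR1 lies at −2.19 in the rescue, −1.04 in the knockout and −3.39 in wild type, NR4A1 and NR4A3 lie above 0 in all groups, and the 7 called heat shock genes lie below 0 in all groups.

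The arms also differed in where their spread lay. The median share of the sum of squares over the 9 libraries was 64.8% between groups and 16.5% between batches in the EGR and NR4A arm, 53.2% and 36.5% in the AP-1 arm, 55.7% and 36.4% in the ERK feedback arm and 69.4% and 17.7% in the other early genes. In the heat shock arm it was 32.4% between groups and 44.6% between batches, and over all genes tested 43.3% and 21.9%. The batch share was larger than the group share in 7 of 12 heat shock genes, 2 of 6 EGR and NR4A genes, 2 of 4 AP-1 genes, 1 of 7 ERK feedback genes and 3 of 8 other early genes, against 36.7% of all genes. Within the heat shock arm HSPB1 stood at the other end from HSPH1, with 94.7% between groups and 2.86% between batches.

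**Figure D5:**
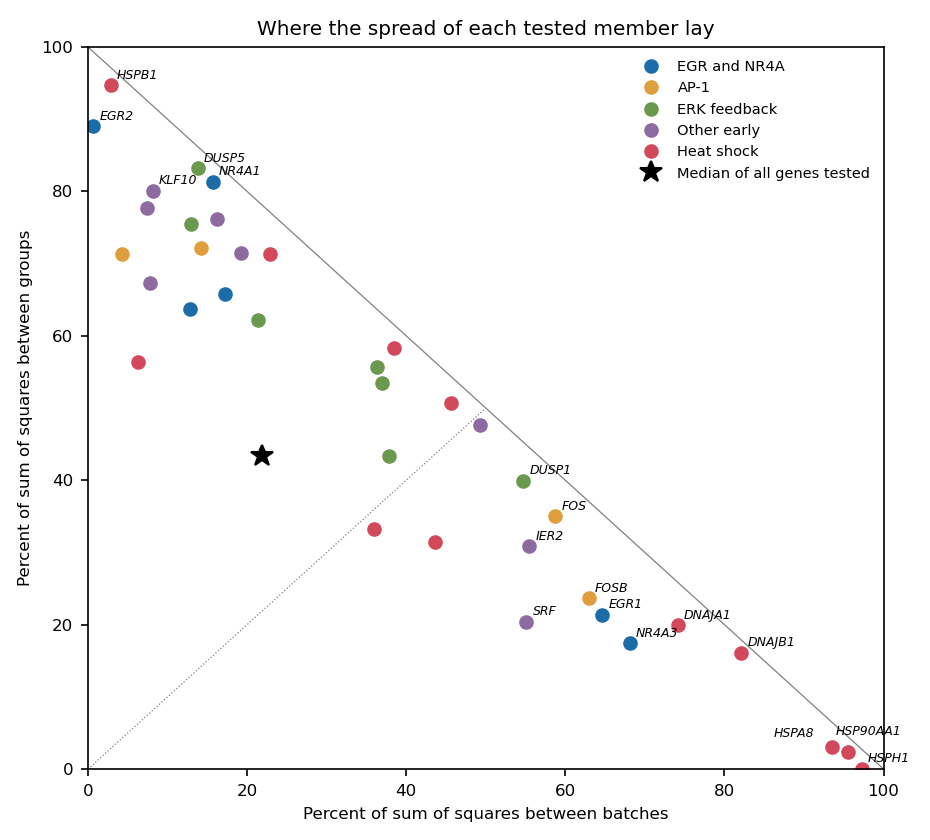
Percent of each tested member's sum of squares between batches (x axis) and between groups (y axis), coloured by arm, with a star at the median of all genes tested (21.9% and 43.3%) and a dotted line where both shares are equal. HSPH1, HSPA8 and HSP90AA1 lie at the batch end and HSPB1 and EGR2 at the group end.

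Other genes of the same pathways, taken from lists named by function, were counted in the same fit. The median log2 difference of knockout minus wild type was −0.16 over further early response genes, 0.03 over the ERK cascade and SRF cofactors and 0.03 over further chaperones, and that of rescue minus knockout was 0.19, 0.0042 and −0.06. Of 27 tested further early response genes 4 fell in the knockout against wild type. With the replicate block, which called 21.5% of all genes, 12 of the 27 fell. The 4 called without the block are 14.8%, near the 12.7% called over all genes. Their count was 2 without knockout library 1 or batch 1 and 1 without batch 3. Of these 4, TRIB1, a pseudokinase, was 2.68-fold lower (adjusted p = 3.74e-05) and RGS2, a regulator of G protein signals, 5.01-fold lower. The antiproliferative BTG2 was 1.94-fold lower and the activation marker CD69 7.81-fold lower. The TRIB1 call was kept under every alternative, that of BTG2 was lost without batch 3, and those of RGS2 and CD69 were lost under 4 and 6 of 20, each without knockout library 1 or batch 1 or 3 among others (adjusted p up to 0.191 over the 3). In the rescue against the knockout 11 rose and 1 fell, with TRIB1 2.67-fold higher, the NF-kB inhibitor TNFAIP3 1.62-fold higher, CD69 13.7-fold higher (343 ± 125 normalized counts in the rescue and 24.9 ± 9.64 in the knockout, SD, n = 3 each) and MYC 1.44-fold lower. These 12 calls (44.4%, against 22.1% of all genes) became 7 without batch 3. In the rescue against wild type 2 rose and 1 fell, among them TNFAIP3, 1.42-fold higher, and MYC, 1.28-fold lower. These 3 calls became 1 without batch 1 and 0 without batch 3. The batch test called 7 of the 27 (25.9%, against 6.74%), 5 higher and 2 lower in batch 2, and 4 without rescue library 2 or wild-type library 2. NAB2, a corepressor of EGR proteins, was 2.00-fold higher in batch 2 and ID2 1.52-fold lower.

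Of 21 tested genes of the ERK cascade and the SRF cofactors 1 was called in the knockout against wild type (4.76%, against 12.7% of all genes). In the rescue against the knockout 2 were called (9.52%, against 22.1%), and in the rescue against wild type 1 (4.76%, near the background of 4.07%). PHLDA1, an ERK-responsive gene, was 2.45-fold lower in the knockout than in wild type (adjusted p = 0.0497, lost under 13 of 19 alternatives, among them no filter and leaving out any knockout library or any batch, with adjusted p up to 0.279), 5.71-fold higher in the rescue than in the knockout and 2.33-fold higher in the rescue than in wild type. The last call was lost under 8 of 19 alternatives (adjusted p up to 0.259), namely a fit restricted to the 2 groups and leaving out rescue library 2 or 3, wild-type library 1 or 3, or any batch. MAP2K1, which encodes the ERK kinase MEK1, was 1.23-fold lower in the rescue than in the knockout (adjusted p = 0.0348), a call lost on log2(CPM + 1) and without rescue library 1 or 2, knockout library 1 or 3, or batch 1 or 3 (adjusted p up to 0.194). No other gene of this list was called in a group comparison. The batch test called 1, SPRED2 (4.76%, against 6.74% of all genes), and none without rescue library 1 or 2 or wild-type library 1. Of 41 tested further chaperones and co-chaperones 2 rose and 1 fell in the knockout against wild type, the endoplasmic reticulum chaperones HSP90B1 (1.31-fold) and HSPA5 (1.22-fold) higher and the collagen chaperone SERPINH1 (2.32-fold) lower. The HSP90B1 call was kept under every alternative, while those of HSPA5 and SERPINH1 were lost under 8 and 6 of 20, each without knockout library 2, wild-type library 1 or 3 or batch 1 or 3 among others (adjusted p up to 0.288). The 3 calls are 7.32%, below the 12.7% of all genes, and 1 was called without wild-type library 1 or 3 or batch 1 or 3. With the replicate block, which called 21.5% of all genes, 7 of the 41 rose and 4 fell. In the rescue against the knockout 2 rose and 6 fell, with HSP90B1 1.39-fold lower and SERPINH1 2.57-fold higher, 19.5% against 22.1% of all genes, and 3 were called without batch 1 and 4 without batch 3. In the rescue against wild type 2 of the 41 fell, both only with the replicate block, which called 8.06% of all genes. The batch test called 12 of them (29.3%, against 6.74%; 5 to 7 without rescue library 1 or 2 or wild-type library 1 or 2), 10 lower and 2 higher in batch 2, with the HSP90 co-chaperones CHORDC1 1.91-fold, FKBP4 1.27-fold, STIP1 1.21-fold and AHSA1 1.28-fold lower.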

How the data were processed

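RNA from 9 libraries of Z138 was sequenced after extraction as polyadenylated RNA, and libraries were made with a TruSeq RNA or a stranded total RNA kit, per the labels' protocols. The submitters' processing notes name the build GRCh38.p13 and, as tools, kallisto 0.46.1, DESeq2 1.24.0, Trimmomatic 0.40, FastQC 0.11.9 and R 4.3.2. The authors deposited log2 values for 16586 genes. They are named log CPM but lie on a variance-stabilized log2 scale, since all libraries share the lowest value 8.5985. The transform was inverted with 2 to that value (388) as its constant, which gave normalized counts. Low values of genes with 1 transcript then lay within 0.05 of a whole multiple of a step for 87.5% to 98.9% of values, against 10% by chance. The share was 48.7% to 53.4% over all genes, as kallisto divides reads. The step gave estimated depths of 30800000 to 40800000 reads, which set the precision for low genes.

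Although log2 CPM was planned for testing, the deposited values were used as they stand. Genes reaching a CPM of 1 in 3 or more libraries (11542, leaving out 5044) were tested with limma 3.58.1 in R 4.3.3, with a mean per group, a trended prior variance and a threshold of 0.05. Per the labels, batch and replicate number are the same and each group has every batch, so the numbers pair the libraries. Same-batch deviations from the group means correlated at 0.187 to 0.51, and 9 of 9 libraries correlated best with one of their own batch. Libraries of a group correlated at 0.991 to 0.997 across genes. The fit was tested on simulated data before use.

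The members and lists were chosen with earlier results of these data known. Values in every library are given for members called in a group comparison (at most 4 per arm and comparison, by adjusted p) and for up to 3 per arm by batch p. Up to 4 genes of each other list were taken by adjusted p in each comparison. FOSL2, JUN, EGR4 and DUSP4 and the markers PAX5, CCND1, CD4, CD3E and NKG7 are given besides, chosen after their values were seen. Positions come from GENCODE 29, windows from RefSeq. Figures were drawn with matplotlib 3.10.9. Alternatives tried were median centring, quantile normalization, log2(CPM + 1), a CPM minimum of 4 or no minimum, a constant prior variance, a fit restricted to the 2 groups, the replicate block, and omission of each library or batch.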

Additional observations from a re-analysis of the deposited data

Results flagged for a closer look

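EGR1 in the rescue against wild type differed in sign between batches. The log2 difference was 0.375 in batch 2, where the rescue had 366 normalized counts and wild type 184, against −0.58 in batch 1 and −1.06 in batch 3, where the rescue had 5153 and 2732 and wild type 8076 and 6474. With 1 library per group and batch, the difference between batches was not tested for this comparison. Groups of 3 libraries are too small for a check of single libraries that stand apart.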

How the results depend on the processing

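With the replicate block, members called numbered 22 for knockout against wild type, 25 for rescue against knockout and 4 for rescue against wild type, compared with 12, 12 and 2 without it. Leaving out 1 library or 1 batch gave 3 to 14, 3 to 17 and 0 to 2 members, and 9 to 17 for the batch test, against 16. Under quantile normalization, median centring, log2(CPM + 1), a constant prior variance, no filter, the stricter filter and a fit restricted to the 2 groups, each of these counts was within 1.5 times its value. The median shares of variance moved by little under the alternatives run for them. No result reversed. Of 517 alternatives for single calls between groups 117 lost the call, and of 239 for single batch calls 32 did. Of 225 counts over the other lists 61 moved by more than 1.5 times. Low counts left EGR4, FOSL1, FOSL2, JUN, DUSP4, DUSP6 and KLF4 outside the tests, as well as HSPA1B, which was listed at 0 in 8 libraries and has a near-identical copy. The part of depth was not tested. Group sizes of 3 leave many calls resting on single libraries. The inversion of the deposited scale sets folds, normalized counts, the CPM filter and log2(CPM + 1), while the tests ran on the deposited values of the genes the filter kept. Paralogs of the HSP and HSPA families share reads, which the deposited values cannot separate.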
